A study of Mus musculus with 141 samples.

Results

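The interferon response of subcutaneous fat was compared between iWAT libraries with high and with low *Isg15* in the mice of the HMDP, a panel of inbred and recombinant inbred mouse strains. *Isg15* is a ubiquitin-like protein that cells make when they sense interferon, and its transcript was used here as the marker of that response. Libraries were ranked by their *Isg15* level in TPM, a transcript level scaled for length and depth, separately in females and in males, and the top 25% was compared with the bottom 25%, so the members were chosen by measured *Isg15* and no other value. Of 67 female and 74 male libraries, 65 and 73 were ranked, from 80 strains. The high group held 16 female and 18 male libraries and the low group also held 16 and 18, so that 68 libraries of 51 strains entered the comparison. The other 70 libraries lay between them and are split at their middle rank below. Mouse numbers 443, 886 and 1269 were left out.

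The groups did not differ by treatment. All mice were inbred, came from Jackson Laboratory stock bred in-house, and were 8 weeks old when they were placed on the HF/HS diet, which is rich in fat and sucrose. They ate it for another 8 weeks, and food was withheld for 4 h before the tissue was collected. Each strain gave at most 1 library per sex, so a library stands for 1 strain and 1 sex, and strain and mouse cannot be told apart within a sex. The tissue label is subcutaneous adipose, and the adipocyte markers *Adipoq*, *Plin1*, *Fabp4* and *Cfd* were among a list of 11 adipocyte genes whose summed level was at least 8422 TPM in each of the 68 libraries. The libraries held 12057900 to 78562600 estimated counts with a median of 30513900. Total counts did not differ detectably between the groups (two-sided permutation test within sex, adjusted p = 0.58).

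Interferons are secreted when a cell detects foreign or misplaced nucleic acids. Type I interferons bind the receptor made of Ifnar1 and Ifnar2, the kinases Jak1 and Tyk2 relay its signal, and a complex that contains Stat2 and Irf9 binds the interferon-stimulated response element (ISRE) in promoters. Interferon gamma uses its own receptor and acts through another element, GAS. The genes that are switched on encode sensors of viral RNA and DNA, enzymes that degrade or block viral RNA, GTPases that attack pathogen-containing vacuoles, antigen presentation proteins and chemokines. In adipose tissue, interferon signalling is known from obesity, where both adipocytes and resident immune cells can respond.

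The promoter of *Isg15* and parts of 9 promoters of other genes that rose in the high group are shown because the element that the response is named for can be read in them. The sequences come from RefSeq on GRCm38.p6 (mm10) and run 5′ to 3′ along the strand of the gene, and capitals mark every base covered by the letters GAAANNGAAA, a core of the ISRE, or by the same letters on the other strand, TTTCNNTTTC. The 250 bases before the start of *Isg15* (minus strand, chr4:156200819-156201068) held 3 overlapping matches, which began 78 to 66 bases before the start.
Isg15: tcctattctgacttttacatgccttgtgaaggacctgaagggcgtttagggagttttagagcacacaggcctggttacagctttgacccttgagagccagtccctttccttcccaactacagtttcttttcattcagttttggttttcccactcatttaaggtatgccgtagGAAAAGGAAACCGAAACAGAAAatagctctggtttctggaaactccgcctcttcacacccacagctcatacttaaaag
Ifit1 (plus strand, chr19:34640765-34640833): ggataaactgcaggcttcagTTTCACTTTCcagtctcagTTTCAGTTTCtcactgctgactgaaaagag
Ifit3 (plus strand, chr19:34583353-34583436): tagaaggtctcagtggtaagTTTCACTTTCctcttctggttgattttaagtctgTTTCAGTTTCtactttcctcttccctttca
Rsad2 (minus strand, chr12:26456543-26456592): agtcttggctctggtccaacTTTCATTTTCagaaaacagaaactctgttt
Oas1a (minus strand, chr5:120907526-120907565): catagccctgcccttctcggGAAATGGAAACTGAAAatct
Bst2 (minus strand, chr8:71537567-71537622): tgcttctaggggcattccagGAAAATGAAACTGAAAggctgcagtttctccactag
Stat2 (plus strand, chr10:128270256-128270305): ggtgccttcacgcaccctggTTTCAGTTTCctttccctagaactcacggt
Cxcl10 (minus strand, chr5:92349073-92349122): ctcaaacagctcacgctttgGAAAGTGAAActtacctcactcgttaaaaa
Gbp3 (plus strand, chr3:142559979-142560034): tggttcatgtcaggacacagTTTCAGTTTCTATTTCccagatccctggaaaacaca
Irgm1 (minus strand, chr11:48871421-48871470): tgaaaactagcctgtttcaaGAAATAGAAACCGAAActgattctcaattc

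*Isg15* (ENSMUSG00000035692) is encoded on chromosome 4 (mm10 156199424-156200818, minus strand). It was measured with 38 to 726 estimated counts per ranked library (median 151). Its levels chose the groups and are given as a description, with no test. In females the high group ranged from 18.2 to 54.3 TPM with a median of 24.5, the upper middle had a median of 14.3 and the lower middle of 10.3, and the low group ranged from 4.12 to 8.46 with a median of 7.18. In males the medians from the high to the low group were 19.6, 13.2, 10.2 and 7.62 TPM, with 15.97 to 40.1 in the high and 3.10 to 8.98 in the low group. The ratio of the median of the high to that of the low group was 3.41 in females and 2.58 in males. The levels formed a continuous series without a gap at the limits of the low groups. CBA/J was the lowest female inside the high group at 18.2 TPM and BXD86/RwwJ the highest outside it at 16.05, while for males AXB5/PgnJ at 15.97 was inside and BXH6/TyJ at 15.6 outside. At the lower limit, BXD21/TyJ at 8.46 was inside and BXD85/RwwJ at 8.59 outside in females, and CXB13/HiAJ at 8.98 was inside and PL/J at 9.03 outside in males.

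**Figure D1:**
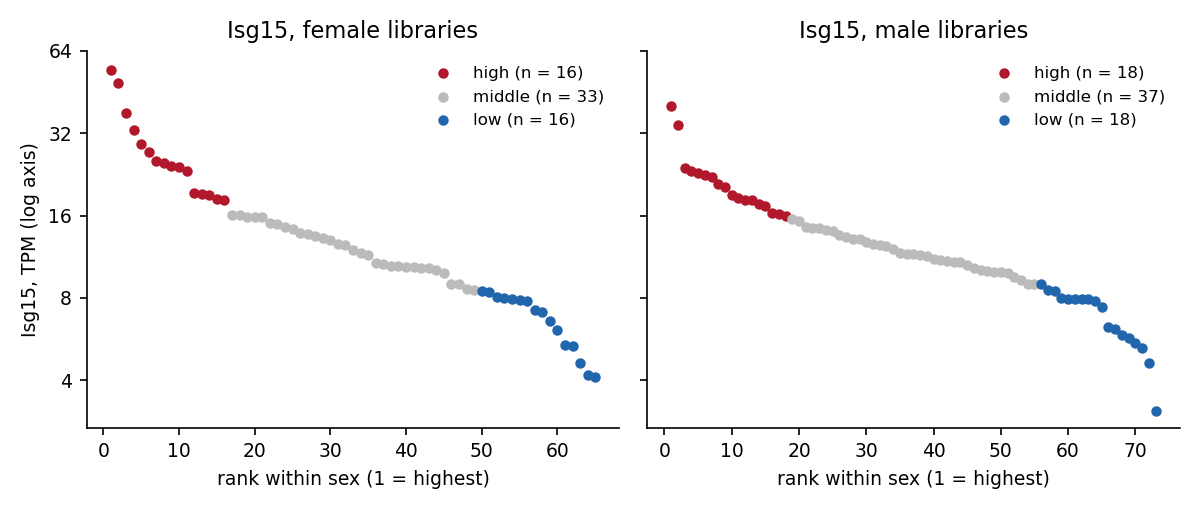
*Isg15* level in TPM (log axis) of each ranked library (65 female, 73 male) against its rank within sex, females left and males right, with the high group in red, the middle libraries in grey and the low group in blue. The female values span 4.12 to 54.3 TPM and the male values 3.10 to 40.1 TPM as one continuous slope.

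The high libraries were not spread evenly over strain families. Of the AXB and BXA recombinant inbred strains, 4 of 9 females and 4 of 11 males were in the high group and 0 were in the low group of either sex. The lowest AXB or BXA library had 10.4 TPM in females and 9.90 in males. Among the BXD strains 4 of 30 females were high and 8 low, and 8 of 34 males were high and 6 low. Of the strains outside these families and the BXH and CXB, 6 of 21 females and 4 of 22 males were high and 7 and 10 were low. These counts follow from the ranking and were not tested.

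Both sexes of a strain were ranked in 58 strains, which made it possible to measure *Isg15* in a library that had not been used to place its strain. In 8 strains both sexes were high, namely AXB5/PgnJ, AXB12/PgnJ, AXB19/PgnJ, BXD56/RwwJ, BXD62/RwwJ, BXH8/TyJ, C3H/HeJ and CE/J, and in 7 both were low. In 2 strains, BXD43/RwwJ and BXD55/RwwJ, the female was high and the male low, and in 0 strains was the female low and the male high. When strains were placed by their female, the 16 males of the high strains had 7.95 to 40.1 TPM of *Isg15* with a median of 15.1, and the 12 males of the low strains 3.10 to 14.6 with a median of 8.22. The groups overlapped, but 14 of 16 males of the high strains were above the median of the low strains. The difference in mean log2(TPM + 1) was 0.99 (SE 0.21, two-sided permutation test, p = 8e-05, adjusted over both tests 8e-05). When strains were placed by their male, the 13 females of the high strains had 9.85 to 54.3 TPM with a median of 24.2, and the 16 females of the low strains 4.63 to 19.004 with a median of 9.57. All 13 females of the high strains were above the median of the low strains. This difference was 1.18 (SE 0.23, two-sided permutation test, p = 2e-05, the smallest that the resamples can give, adjusted 4e-05). Spearman's rho between female and male *Isg15* over the 58 strains was 0.62, given as a description because related strains share genome. Both permutation tests took strains as independent and so carry the same limit. They also had strains in common and are not separate evidence.

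**Figure D2:**
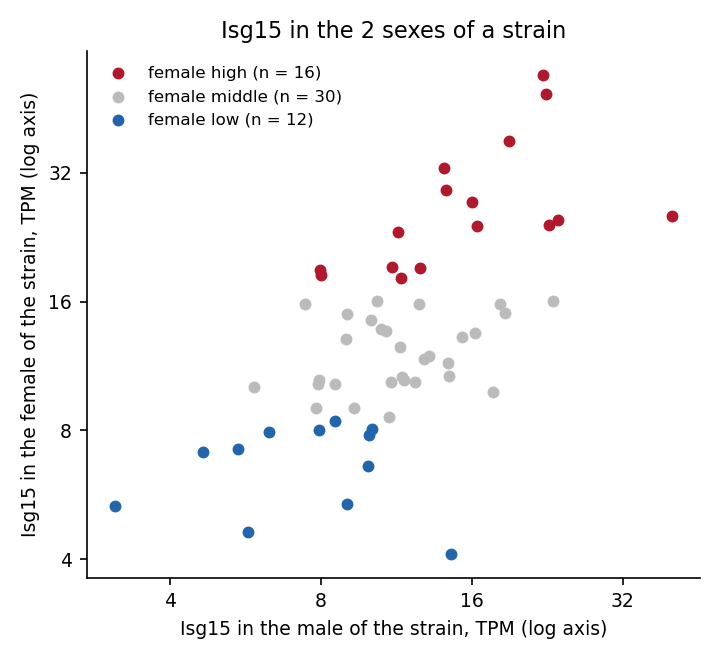
*Isg15* in the female against *Isg15* in the male of the 58 strains with both sexes, in TPM on log axes, coloured by the group of the female (16 high, 30 middle, 12 low). The males of 14 of the 16 red strains lie above 8.22 TPM, the median of the males of the blue strains.

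Across all other genes, 968 of 16797 genes tested (5.76%) differed between the high and the low group at an adjusted p under 0.05 (edgeR quasi-likelihood test with sex as a covariate, Benjamini-Hochberg). Of these, 390 (2.32%) rose in the high group and 578 (3.44%) fell, and the median log2 fold change (log2FC) over all genes was -0.01. This fit took the 68 libraries as independent, although 17 of the 51 strains gave 2 of them. With strain as a block in limma-voom (correlation within strain 0.404) 252 genes were called, 156 upward and 96 downward, against 640 by limma-voom without the block. Of the 390 rises 144 and of the 578 falls 95 were also called with the block. Such genes are termed called below, and a log2FC is high minus low. The direction of the calls depended on the scaling: 786 rose and 129 fell with library totals in place of TMM, and 3950 rose and 54 fell on log2(TPM + 1), where the median of all genes moved to 0.15. Changes shared by all genes are therefore not described, and gene groups are set beside the median of all genes. Because *Isg15* chose the groups, genes that follow it in these same libraries had to differ, and the size and breadth of the difference describe how far each pathway moved with *Isg15*.

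The enzymes that attach *Isg15* to other proteins and remove it again rose together. All 5 genes of this pathway were called, with a median log2FC of 0.56, against a background of 2.32% called upward. *Usp18*, the protease that removes *Isg15* and also dampens the type I interferon receptor, had 6.69 to 54.03 TPM in high females (median 19.3) against 2.01 to 14.4 in low females (median 3.99). In males it had 7.98 to 34.3 TPM (median 12.3) against 2.18 to 10.8 (median 4.76). Its log2FC was 1.48 (SE 0.15, adjusted p = 5.11e-11 by edgeR). The ligase *Herc6* rose by 0.68, the activating enzyme *Uba7* by 0.56, the conjugating enzyme *Ube2l6* by 0.45 and the ligase *Trim25* by 0.38 on the log2 scale. The conjugation genes are not adjacent to *Isg15*, and within 2 Mb of *Isg15* on chromosome 4, 0 of 50 genes tested rose and 1, *Samd11*, fell. Of all genes 2.32% rose and 3.44% fell, and counts this small cannot tell the region from the background. In these 50 genes the median log2FC was -0.02.

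The antiviral effectors formed the broadest group, with 38 of 45 genes tested rising and 0 falling at a median log2FC of 0.79. *Oas1a*, which makes the second messenger that activates RNase L, had 7.26 to 32.3 TPM in high females (median 13) and 1.90 to 6.35 in low females (median 2.97). In males it had 5.92 to 29.1 TPM (median 10.7) and 1.10 to 6.49 (median 3.31), so the groups did not overlap in females and barely overlapped in males. Its log2FC of 1.69 (SE 0.13, adjusted p = 6.97e-16 by edgeR) was the most significant of all genes. *Ifit1*, which binds viral RNA caps, had 9.36 to 36.5 TPM in high females (median 18.4) against 1.80 to 10.5 (median 5.49). In males it had 8.92 to 31.9 TPM (median 13.6) against 1.31 to 6.70 (median 4.58), without overlap. It rose by 1.58 on the log2 scale (SE 0.13, edgeR adjusted p = 2.39e-15). *Rtp4*, an inhibitor of viral replication, had medians of 58.8 TPM in high and 22.5 in low females and of 53.4 and 19.6 in males, with a log2FC of 1.30 (SE 0.11, edgeR adjusted p = 1.48e-14).

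Within this list the largest changes were those of *Oas3* (log2FC 2.06), *Ifi44* (2.05), *Oas1g* (1.86), *Oasl1* (1.79), *Oas1a* (1.69), *Ifit1* (1.58), *Oas2* (1.45), *Mx2* (1.41), *Mx1* (1.38), *Phf11a* (1.37) and *Ifit3* (1.36). *Adar*, the enzyme that edits double-stranded RNA, and *Eif2ak2*, the kinase that halts translation, rose less, with 0.52 and 0.34. The 7 tested genes that were not called were *Ifi27* (-0.04), *Ifi27l2a* (-0.32), *Trim30d* (0.18), *Parp9* (0.19), *Slfn5* (0.19), *Slfn8* (0.79) and *Epsti1* (0.42). Near-identical copies such as *Oas1a* and *Oas1g*, *Ifit3* and *Ifit3b* or *Tgtp1* and *Tgtp2* can share reads, and the split between them is uncertain.

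Sensors of viral nucleic acid rose as well, with 6 of 11 called at a median log2FC of 0.52. The cytoplasmic RNA sensors *Dhx58* (0.89), *Ifih1* (0.52) and *Ddx58* (0.50), the Z-nucleic acid sensor *Zbp1* (1.44), the endosomal RNA sensor *Tlr7* (0.81) and the DNA sensor *Cgas* (0.45) rose. *Dhx58* ranged from 7.75 to 38.01 TPM (median 14.6) in high and from 4.24 to 10.8 (median 6.14) in low females. The endosomal receptor *Tlr3* (0.03) and the adaptor *Mavs* (-0.15), through which the cytoplasmic RNA sensors signal, were not called.

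Of the interferons themselves, only *Ifng* could be compared. Of 15 ligand genes, 5 passed the filter on low counts, and all genes of type I and type III interferons in the list were among the 10 that did not. *Ifng*, interferon gamma, had a log2FC of 1.06 (SE 0.41) with an adjusted p of 0.10 by edgeR. *Il15* (0.08) and *Il18* (0.07) were not called either.

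Among receptors and signal transducers the change was selective, with 7 of 24 called, all upward, at a median log2FC of 0.17. The transcription factor *Irf7*, which amplifies type I interferon production, had 15.8 to 107.35 TPM (median 40.5) in high and 5.96 to 20.97 (median 11.1) in low females. In males it had 19.9 to 72.8 TPM (median 27.8) against 4.79 to 20.05 (median 13.4). Its log2FC was 1.36 (SE 0.12, edgeR adjusted p = 1.54e-13). *Stat2* and *Irf9* of the ISRE-binding complex rose too, by 0.69 and 0.66. *Socs1*, a feedback inhibitor of Jak kinases, rose by 0.82, *Irf5* by 0.63 and the interferon-inducible *Nmi* by 0.31. The receptor genes *Ifnar1* (0.04), *Ifnar2* (-0.02), *Ifngr1* (-0.03) and *Ifngr2* (0.11) and the kinases *Jak1* (0.11) and *Tyk2* (0.18) were not called.

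Targets that interferon gamma induces strongly were also higher. Of the guanylate-binding proteins and immunity-related GTPases, which act on pathogen vacuoles, 12 of 16 rose and 0 fell at a median of 0.76, led by *Gbp10* (log2FC 1.88) and *Tgtp2* (1.14). *Irgm2* had medians of 26.8 and 12.03 TPM in high and low females and of 24.97 and 12.8 in males (log2FC 0.97, SE 0.15, edgeR adjusted p = 9.38e-06). Antigen processing and MHC class I had 8 of 19 genes called at a median of 0.39, among them the peptide transporter *Tap1* (0.56), the class I regulator *Nlrc5* (0.56) and the immunoproteasome subunit *Psmb10* (0.39), whereas *H2-K1* (0.25), *H2-D1* (-0.02) and *B2m* (0.11) were not called. Of 7 MHC class II genes *H2-DMa* was called (0.61), and the list median was 0.57.

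**Figure D3:**
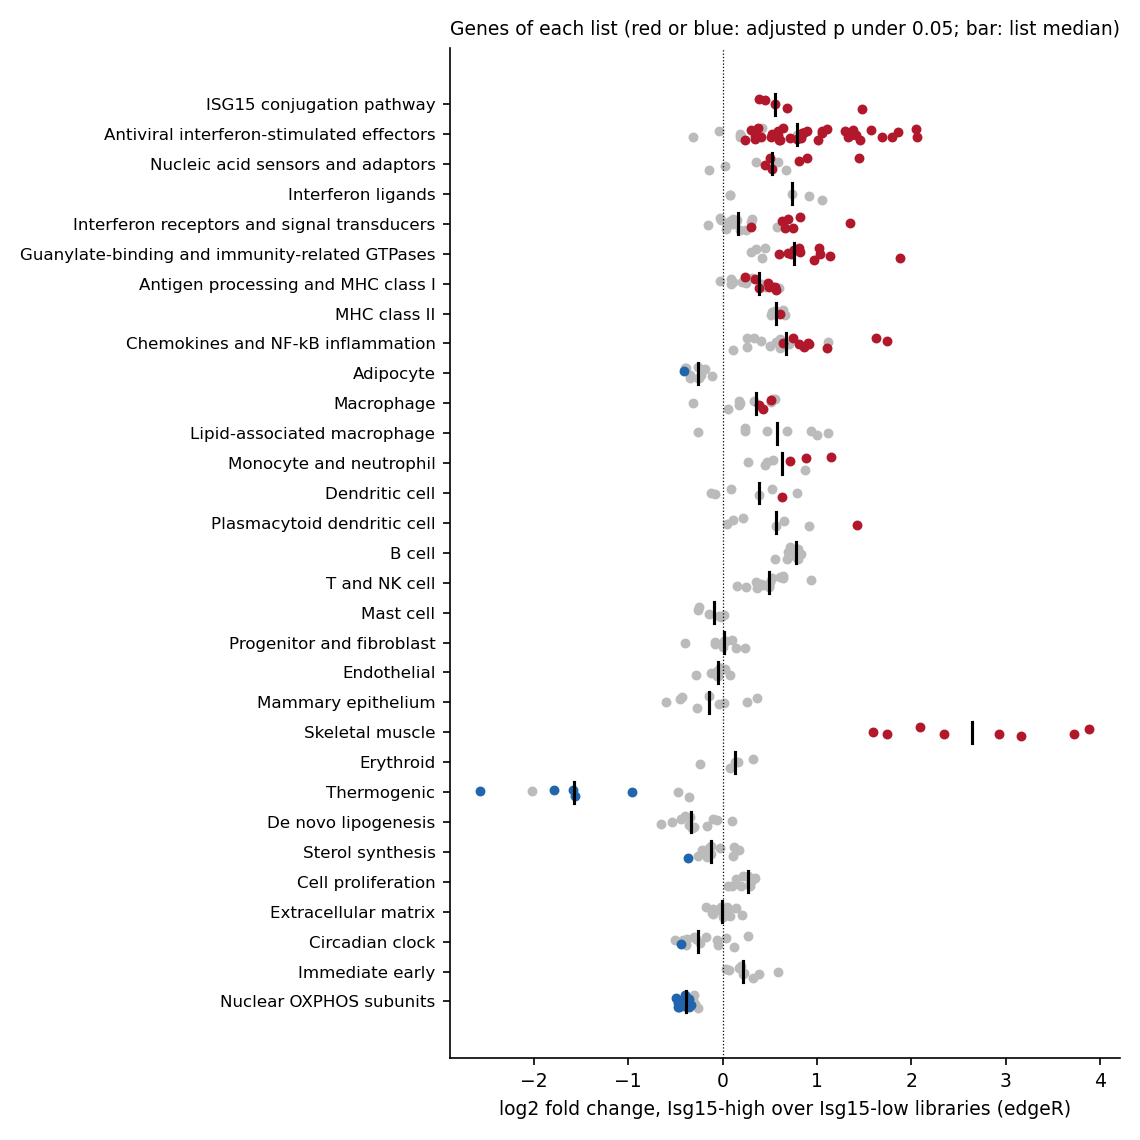
log2 fold change of every tested gene of 31 lists, Isg15-high over Isg15-low libraries, 1 point per gene, with called genes in red (higher) or blue (lower), other genes in grey and a bar at the list median. The antiviral list has 38 red points of 45, the skeletal muscle list 8 of 8, and the nuclear OXPHOS list 16 blue points of 22.

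Chemokines and NF-kB inflammation genes were higher in 9 of 20 cases, at a median of 0.67. *Cxcl10*, which attracts activated T cells, had 2.50 to 251 TPM (median 11.1) in high and 1.43 to 9.40 (median 2.29) in low females, with a log2FC of 1.74 (SE 0.31, edgeR adjusted p = 1.17e-04). One library set the upper end of this group. The female of AXB12/PgnJ, which also had the highest *Isg15* of all libraries (54.3 TPM), held 251 TPM of *Cxcl10* where the next library held 30.6, 658 TPM of *Cxcl9* against 100.7, 1677 TPM of the acute-phase gene *Saa3* against 258, and 215 TPM of the formyl peptide receptor *Fpr2* against 6.48. Without the highest *Isg15* library of each sex, *Cxcl10* remained called at 1.23 (adjusted p = 2.38e-04) and *Fpr2* at 1.03 instead of 2.55, but *Saa3* went from 1.62 to 0.50 (adjusted p = 0.32) and *Il1b* from 1.11 to 0.36 (adjusted p = 0.32), and 3 of 20 genes of the list were called.

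The 10 genes whose pattern was most like *Isg15* over all ranked libraries were *Ifit1* (Spearman's rho 0.87), *Oas1a* (0.86), *Rtp4* (0.85), *Oas2* (0.83), *Oas1g* (0.83), *Irf7* (0.81), *Bst2* (0.79), *Oasl2* (0.79), *Ifi44* (0.76) and *Oasl1* (0.75). The median over all genes tested was 0.15. These libraries share strains, and the values are a description. The medians of *Ifit1* and *Oas1a* increased at each step from the low group through the lower and the upper middle to the high group in both sexes, so the middle libraries, which the fit did not use, lay between the groups.

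**Figure D4:**
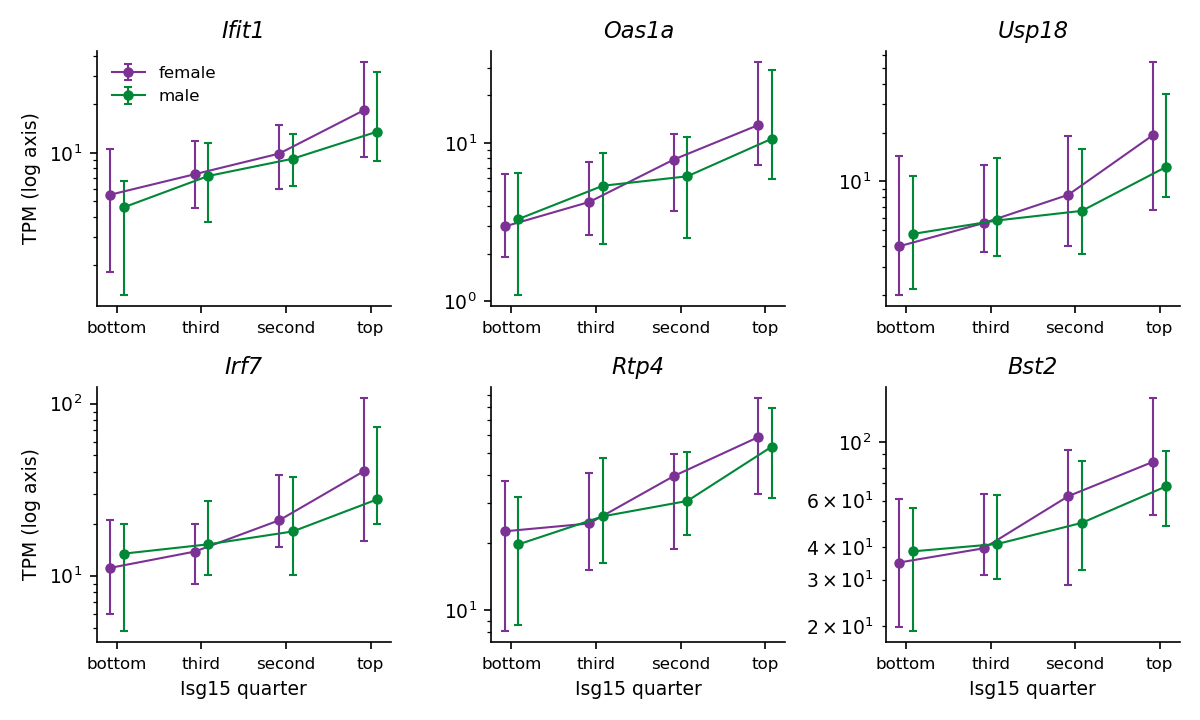
Level in TPM (log axis) of 6 genes by *Isg15* rank in 4 parts of about equal size, females in purple and males in green, with the median as a point and the lowest and highest library as the ends of the bar. The median of *Ifit1* is 5.49 TPM in the bottom and 18.4 in the top part of females, and 4.58 and 13.6 in males.

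The called genes were also described by position and by promoter letters. Of 34 promoters known for the antiviral list (RefSeq, 250 bases before to 50 after the start), 16 (47.1%) held GAAANNGAAA on either strand, as did 9 of 9 promoters of the GTPase list. The share was lower in the other lists examined, with 5 of 17 for MHC class I, 2 of 7 for the sensors, 3 of 22 for receptors and signal transducers, 2 of 15 for nuclear OXPHOS subunits, 0 of 7 for skeletal muscle and 0 of 4 for the *Isg15* pathway, whose 5 genes were all called. The list counts take all tested genes, called or not. All 5 MHC class I genes that held the letters (*B2m*, *Erap1*, *H2-T22*, *H2-T23* and *Psme1*) were not called. Nor were *Slfn5*, *Slfn8* and *Trim30d* of the antiviral list, *Gbp2* of the GTPases and *Irf2* of the signal transducers. Of all genes tested, 492 of 12133 promoters (4.06%) held it, against 59 of 283 (20.8%) of the called genes that rose and 12 of 436 (2.75%) of those that fell. Over all 32851 promoter windows the share was 3.44%. The letters TTCNNNGAA, a GAS core that can overlap the former, occurred in 8.51% of promoters of genes tested and in 14.5% of those that rose. Some windows of 5 Mb with many genes that rose held gene families, beside 2.32% of all genes tested that rose. Chromosome 1 had 12 of 95 at 170 to 175 Mb (*Ifi204*, *Ifi203* and other members of that family, with *Fcgr4*). Chromosome 19 had 6 of 29 at 30 to 35 Mb (the *Ifit* cluster). Chromosome 5 had 7 of 95 at 120 to 125 Mb (the *Oas1* to *Oas3* cluster). On chromosome 11, 9 of 47 rose at 45 to 50 Mb (*Irgm1*, *Tgtp1*, *Tgtp2*, *Ifi47*). Other windows were mixed. At 35 to 40 Mb of chromosome 17, 11 of 90 rose, among them *H2-Q4* and *H2-Q5* but also *Msh5* and *Clic1*. At 55 to 60 Mb of chromosome 14, 9 of 73 rose and 5 fell.

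The contrast was measured again in libraries that had not set the groups. In the 29 females placed by the male of their strain, 6 of 15310 genes (0.0392%) were called, all upward: *Oas1a* (log2FC 1.498, adjusted p = 0.011), *Oas1g* (1.65), *Oasl2* (1.24), *Rtp4* (1.10), *Ifit3b* (1.13) and *Isg15* itself (1.22, adjusted p = 0.033), all by edgeR, while limma-voom called 0 genes there, with 359 at an unadjusted p under 0.05. *Oas1a* had 4.11 to 32.3 TPM (median 11.96) in the females of high strains and 1.90 to 8.90 (median 3.93) in those of low strains. Of 45 antiviral genes 44 had a log2FC above 0, with a median of 0.68, against -0.01 over all genes. In the 28 males placed by the female of their strain, 0 of 14667 genes were called by edgeR (0%), with 442 at an unadjusted p under 0.05 and 0 called by limma-voom. The 4 interferon-responsive genes among the 5 with the smallest p were *Isg15* (1.05), *Irf7* (0.96), *Oas1a* (1.33) and *Ifi44* (1.83), with adjusted p of 0.13 by edgeR. There 42 of 45 antiviral genes lay above 0, with a median of 0.41 against -0.02 over all genes. When the top and bottom 1 in 3 libraries were compared, 12 genes were called in each sex, of 14834 tested in males and 15375 in females. In each sex 9 of the 12 rose and 3 fell. *Isg15*, *Oas1a*, *Oas1g* and *Oas2* were among the 12 in both.

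Within each sex the same comparison called 1077 of 15269 genes in females (7.05%; 3.87% rose and 3.18% fell) and 59 of 14798 in males (0.399%; 0.338% rose and 0.0608% fell). Of the antiviral list, 34 of 45 rose in females (median 0.96) and 22 of 45 in males (median 0.61). Of the GTPases 11 of 15 rose in females and 2 of 15 in males, and of the MHC class I list 8 and 0 of 19. Chemokines and inflammation genes rose in 5 of 17 cases in females and 0 of 16 in males, and macrophage genes in 2 and 0 of 12. Of the thermogenic genes 5 of 7 fell in females and 0 of 7 in males, and of the OXPHOS subunits 11 and 0 of 22. Skeletal muscle genes rose in 0 of 6 cases in females and 5 of 6 in males. In males the medians of the GTPase, MHC class I, chemokine, macrophage, thermogenic and OXPHOS lists were 0.49, 0.15, 0.34, 0.25, -0.89 and -0.20. A test of the sex by group interaction called 0 of 16797 genes by edgeR (0%), with 2059 at an unadjusted p under 0.05, and 0 by limma-voom, so a difference between the sexes was not shown for any gene.

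Other transcripts moved with *Isg15* that are not interferon targets. All 8 skeletal muscle genes rose, with a median log2FC of 2.64, the highest of all lists. *Myh4*, the fast myosin heavy chain, had a median of 0.14 TPM and a highest value of 37.4 in high females, against 0.019 and 5.55 in low females. In males the medians were 0.022 and 0.015 TPM and the highest values 413 and 4.41, so single libraries made the difference. *Actn3* (3.66), *Ckm* (3.17), *Tnnt3* (2.93), *Pvalb* (2.84), *Ttn* (2.57), *Tnnc2* (2.51), *Cacna1s* (2.43) and *Tnni2* (2.38) were among the 12 genes with the largest rise. The summed level of the muscle list reached 100 TPM in 5 of 16 high and 1 of 16 low females, and in 5 of 18 high and 0 of 18 low males, with 2997 TPM in the male of BXH8/TyJ. Without these 11 libraries 0 of 7 muscle genes were called (median -0.06). The libraries were removed by the sum of this list, so the loss of its calls follows from the removal. The antiviral list kept 35 of 45 genes called (median 0.86), and *Usp18* (1.501), *Irf7* (1.40) and *Oas1a* (1.72) stayed called. Over all genes, 212 were called without these libraries in place of 968. *Irf5*, *Socs1*, *H2-DMa*, *Cxcl9*, *Ccl8*, *C1qa*, *C1qb*, *C1qc*, *Ly6c2*, *Csf3r*, *Batf3*, *Ucp1*, *Dio2*, *Cidea*, *Cox7a1*, *Ndufv1*, *Atp5b*, *Pnpla2*, *Fdft1* and *Per3* were among the genes then no longer called, with log2FC in the same direction. The GTPase list kept 8 of 16 calls, MHC class I 2 of 19 and chemokines and inflammation 1 of 20. The part of neighbouring muscle in the samples was not tested. *Cox6a2*, listed for plasmacytoid dendritic cells but also a muscle subunit of cytochrome c oxidase, was the called gene of its list (1.42).

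**Figure D5:**
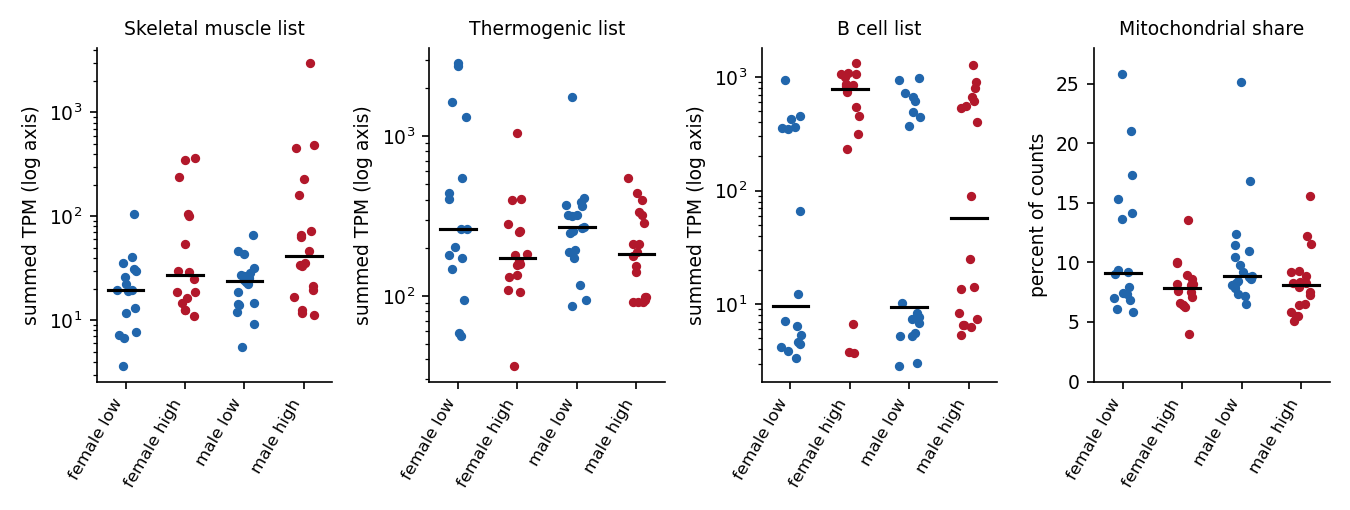
Summed TPM of the skeletal muscle, thermogenic and B cell lists (log axes) and the percent of counts in mitochondrially encoded genes (linear axis) in the 68 libraries, by sex and *Isg15* group, with a bar at the median. A muscle sum of at least 100 TPM occurs in 10 of 34 high and 1 of 34 low libraries, and the B cell sums fall into a low and a high range in each group.

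The thermogenic and oxidative genes fell. Of 8 thermogenic genes 5 fell, at a median log2FC of -1.58. *Ucp1*, which uncouples respiration in brown and beige adipocytes, had 0.345 to 369 TPM (median 3.52) in high females and up to 1276 (median 24.8) in low females, and 0 to 140 (median 5.87) in high against 0.132 to 473 (median 6.85) in low males. It fell by 2.56 on the log2 scale (SE 0.75, edgeR adjusted p = 0.032), and *Dio2* (-1.79), *Cidea* (-1.59), *Cox7a1* (-1.57) and *Cox8b* (-0.96) fell with it. Among the 68 libraries, the 4 highest values of *Ucp1*, from 473 to 1276 TPM, belonged to low libraries, the females of BXD14/TyJ, MA/MyJ and BXD75/RwwJ and the male of SWR/J. A male of the middle libraries had 1134 TPM. Of 22 nuclear-encoded OXPHOS subunits 16 fell, at a median of -0.39, with *Sdhb* at -0.49, *Uqcrc1* at -0.47, *Ndufv1* at -0.46 and *Atp5b* at -0.45, and 11 of 13 mitochondrially encoded genes fell at a median of -0.59. The percent of counts in mitochondrially encoded genes averaged 8.13 in the high and 10.9 in the low group (difference -2.73, two-sided permutation test within sex, p = 0.00454, adjusted over 4 properties 0.0182), and 296 more genes were detected per high library (adjusted p = 0.0409). TPM is a share of all transcripts, the mitochondrial ones included, so a library rich in them tends to rank lower by *Isg15* TPM. The fall of the mitochondrially encoded genes and of their percent can therefore follow in part from the ranking. The size of that part was not tested.

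The calls of these decreases depended on the setting. With strain as a block 0 of 8 thermogenic and 0 of 22 OXPHOS genes were called, at medians of -0.63 and -0.34, and without the 11 muscle-rich libraries again 0 of either, at -1.31 and -0.35. Ranking the libraries by TMM-scaled *Isg15* CPM (counts scaled to library size) instead of TPM also called 0 of either list, with medians of -0.02 and 0.00. In the same fits 35, 35 and 28 of 45 antiviral genes rose. With the percent of mitochondrially encoded counts as a covariate the medians were -0.02 and -0.07, but this percent is itself among the values that fell. In females placed by their males all 7 thermogenic genes tested and all 22 OXPHOS subunits lay below 0, at medians of -1.34 and -0.17, and in males placed by their females the medians were -0.10 and -0.03. Of both lists 0 genes were called in either of these fits.

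The cell composition of the groups was described by markers, and in bulk tissue fewer cells of a type and less RNA per cell cannot be told apart. Macrophage genes had a median log2FC of 0.36 with 3 of 12 called, the complement genes *C1qb* (0.51), *C1qc* (0.43) and *C1qa* (0.39). Among 8 monocyte and neutrophil genes *Plac8* (1.15), *Ly6c2* (0.89) and *Csf3r* (0.72) rose, and *Plac8* and *Ly6c2* are themselves known to respond to interferon. Of 7 dendritic cell genes *Batf3* (0.63) was called. The 8 genes of lipid-associated macrophages were not called. Of the summed macrophage list, high females had 696 to 7295 TPM (median 1404) and low females 319 to 1635 (median 690), and high and low males had medians of 1162 and 902.

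Lymphocyte markers differed widely among libraries in both groups. The B cell list summed to at least 50 TPM in 13 of 16 high and 7 of 16 low females and in 9 of 18 high and 8 of 18 low males, with a range from 3.69 to 1330 TPM in high females. Of 9 B cell and 14 T and NK cell genes 0 were called by edgeR, at medians of 0.78 and 0.49. In females alone these medians were 1.54 and 1.25, with 1 T and NK cell gene called. In males alone they were 0.01 and -0.26, with 0 genes called. With the mean level of both lymphocyte lists as a covariate 36 of 45 antiviral genes were called (median 0.64), and with that of the macrophage list 35 (median 0.80). The GTPase list went from 12 to 5 of 16 genes called with the lymphocyte covariate. Of 11 adipocyte genes *Pnpla2*, the lipase that opens triglyceride breakdown, fell by 0.41, and the list median was -0.26. Fibroblast (0.02), endothelial (-0.05), mast cell (-0.09), mammary epithelial (-0.15), erythroid (0.13) and extracellular matrix (0.00) lists had medians near 0 and held 0 called genes. The lists of de novo lipogenesis (median -0.33, 11 of 12 genes below 0), cell proliferation (0.27, 12 of 12 above 0) and immediate early genes (0.22, 9 of 9 above 0) also held 0 called genes. Of 11 sterol synthesis genes tested *Fdft1* fell by 0.36, and of 14 clock genes *Per3* fell by 0.44 (edgeR adjusted p = 0.0488). These single calls, like that of *Pnpla2*, stand beside 3.44% of all genes that fell and are not read as changes of their lists.

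The largest decrease among named genes came from a small set of strains. *Gdpd3*, a lysophospholipase D, had nearly equal medians in the groups, 6.68 against 6.64 TPM in females and 7.67 against 7.30 in males, yet a log2FC of -3.27 (SE 0.47, edgeR adjusted p = 7.87e-07). Its levels fell into separate ranges. In 13 libraries it was at 100.7 TPM or more, and all others were at 31.98 or less. These 13 libraries belonged to 7 strains, 129X1/SvJ, FVB/NJ, I/LnJ, KK/HlJ, LP/J, MA/MyJ and SM/J, and in all 6 of them with both sexes ranked both were at that level. Of the 13, 9 were in the low group, 4 in the middle and 0 in the high group. In the opposite-sex libraries the log2FC was -3.21 in males and -3.40 in females (edgeR adjusted p = 0.13 and 0.077). The pseudogenes *Ftl1-ps1* (-2.44) and *Rpl17-ps5* (-2.40) and the gene *AC133509.1* (-3.16) also differed by single libraries or strains, with maxima in females of 1032 TPM of *Ftl1-ps1* in the low and 707 in the high group, and in males of 860 TPM of *Rpl17-ps5* in the low and 10.2 in the high group, and values of pseudogenes are uncertain because reads are shared with their parent genes.

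Most genes that stayed called under every alternative of the high-low fit belonged to the interferon lists. The opposite-sex fits are not among these alternatives. Of the 968 called genes, 39 were called in the same direction under each of the 27 alternative analyses that tested them. Of these 39, 21 belonged to the antiviral list, and the others included *Usp18*, *Herc6*, *Ube2l6* and *Trim25* of the *Isg15* pathway, *Irf7*, *Irf9* and *Stat2*, the sensors *Dhx58*, *Ifih1* and *Ddx58*, the GTPases *Gbp3* and *Irgm2*, and *Ifitm3*, *Fcgr1*, *Lgals9*, *Ddx60*, *Apol9a* and *Cngb3*. The number of antiviral genes called ranged from 22 of 45 in males alone to 41 on log2(TPM + 1) across these analyses, and its median log2FC from 0.61 to 1.03. The 27 alternatives kept groups set by *Isg15*, apart from the ranking by 6 other interferon genes. Genes close to *Isg15* therefore had to differ in them, and the 39 are a description. The 6 genes, *Ifit1*, *Ifit3*, *Rsad2*, *Usp18*, *Oasl2* and *Rtp4*, were among the 39 although they set the groups of that ranking.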

How the data were processed

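RNA-seq of subcutaneous fat was analysed in 141 libraries. The authors quantified reads with kallisto (0.46.1 per the labels) against the Ensembl 97 transcriptome of GRCm38 (mm10) and used tximport for values per gene. The estimated counts were deposited without normalization between libraries and were rounded here, and the deposited TPM had been scaled for transcript length and depth by the authors. Reads were matched to reference transcripts, so transcripts that differ from the reference in a strain may be undercounted. Symbols and coordinates came from GENCODE M21, and 1 antiviral gene (*Mnda*) of 389 list entries matched no identifier.

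Genes were kept by filterByExpr with sex as the group, scaled by TMM and tested by the quasi-likelihood method of edgeR (4.0.16 under R 4.3.3) in the model ~ sex + *Isg15* group, with *Isg15* left out of the counts and Benjamini-Hochberg adjustment over all genes tested at 0.05. Strain was not a term of this model, and 17 of the 51 strains gave 2 libraries, 15 of them within 1 group. Strain as a random block was an alternative. Means of *Isg15* and of library properties were compared by permutation with 100000 resamples (SciPy 1.17.1), and p-values measure the spread between libraries, taken as independent. limma 3.58.1 and DESeq2 1.42.0 were alternatives. On simulated counts for this comparison, 16644 genes were tested. There 69 of 100 genes changed by 0.5 and 93 of 100 changed by 1 on the log2 scale were recovered. Of the calls on simulated counts, 4.71% were false. This share was not measured for the calls on the real counts and need not apply to them. In the real counts, libraries of the same strain were correlated (0.404 with strain as a block), and single libraries or strains made some differences. No pair of libraries held identical values.

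The members, the 31 gene lists and the tests were chosen with earlier results of these data known. Named genes were *Isg15*, the called genes of its pathway and of the signal transducers, the 12 autosomal genes with the largest change in each direction (at least 1 CPM, no Gm or Rik models), and in each other list up to 3 called genes with the smallest p or, with none called, the 2 with the highest CPM. Further list members are given to show each list. The split of *Gdpd3* and the values of the AXB12/PgnJ female were looked up after their values were seen. Alternatives changed the test, scaling, filter, ranking measure, group size, covariates and libraries, and 5 of 27 were added after the data were seen (covariates for the adipocyte, macrophage, muscle and thermogenic lists, and leaving out libraries with a muscle sum of at least 100 TPM). Values of 1 gene counted in these lists are not reported here.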

Additional observations from a re-analysis of the deposited data

How the results depend on the processing

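The opposite-sex difference of *Isg15* was past the threshold under each alternative, from 0.81 to 1.08 in males and from 0.96 to 1.26 in females on the log2 scale. The number of called genes, 968, was 4186 and 4004 by limma with a pseudocount of 0.1 or of 1 on TPM, 2660 when ranked by 6 other interferon genes and 1749 with the top and bottom 1 in 3 libraries. It was 640 with limma-voom, 462, 440, 286, 256, 208 and 186 with the macrophage, muscle, lymphocyte, adipocyte, thermogenic and percent mitochondrial covariates, 428 without the highest *Isg15* library of each sex, 252 with strain as a random block, 212 without muscle-rich libraries, 129 with strain family, 1.2e+02 (rounded to 2 digits) when ranked by *Isg15* CPM, 74 with 1 in 10 libraries and 59 in males alone. The cause of these changes was not tested. The last named and the sets that left libraries out also held fewer libraries, and the part of that was not tested either. Of 69 called named genes, 42 were called with the macrophage, 41 with the adipocyte and the thermogenic, 40 with the percent mitochondrial, 33 with the lymphocyte and the muscle covariate, 40 in females alone, 37 with limma-voom, 27 with strain family, strain block, CPM ranking or no muscle-rich libraries, 24 in males alone and 20 with 1 in 10 libraries. In the opposite-sex fits 12 genes were called in each sex with 1 in 3 libraries, and 0 in females with limma-voom.

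The direction turned for 11 named genes, none of them an interferon target. With the muscle covariate and without muscle-rich libraries, in this order, *Atp2a1* went to -0.10 and -0.43, *Ckm* to -0.15 and -0.19, *Tnnc2* to -0.59 and -0.73 and *Myh1* to -0.39 and -0.47, and *Myh4* to -0.39 with the covariate. These genes, apart from *Tnnc2*, belong to the list that defined both settings, so the loss of their rise follows from the settings. Ranked by *Isg15* CPM, *Fabp3* was at 0.10, *Ucp1* at 0.0069 and *Dio2* at 0.22, and *Fabp3* was at 0.091 with the thermogenic and *Ucp1* at 0.077 with the percent mitochondrial covariate. *Ftl1-ps1* was at 0.0099 and *Rhbg* at 0.058 with DESeq2, and *Rpl17-ps5* at 0.11 in females alone. The CPM ranking shared 29 of 34 high and 27 of 34 low libraries with the TPM ranking. No paired analysis was possible by replicate number because each mouse number occurs once. Of the 17 strains with 2 libraries, 15 had both in 1 group, so strain was a random block instead, which is not a pairing of high with low. Depth limits genes of low count, such as the interferons.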

Other observations

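The 3 libraries that were left out of the ranking had *Isg15* levels of 4.42 (BXD34/TyJ), 13.9 (BXD69/RwwJ) and 3.21 TPM (NZW/LacJ). With them ranked, the high group was the same and 32 of 34 low libraries were kept. Then 651 genes were called, 223 upward and 428 downward, of which 221 and 227 were among the 390 and 578 called without them. The antiviral list had 37 of 45 genes called and the OXPHOS list 7 of 22 in place of 16.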
